A study of Mus musculus with 12 samples.

Results

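The members read here were 10 genes of the anaphase-promoting complex and its 2 coactivators. The arrays also carried 6 other subunit genes, which are not members and are read further below. The members were the subunit genes Anapc1, Anapc2, Anapc4, Anapc5, Anapc7, Anapc10, Anapc11 and Anapc13 and the coactivator genes Cdc20 and Fzr1. All 27 probes that carry 1 of these symbols in the deposited table were taken, out of 56605 probes on the array, and the genes are 10 of 27306 gene symbols there. Of the 27 probes, 19 could be tested, and each of the 10 genes had at least 1 of them. The set was chosen by the siRNA differences of the Anapc5 probes, which disagree, so the siRNA difference of Anapc5 is a description below and has no test. Its probes are kept apart throughout.

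The samples were cells of C2C12, a muscle myoblast line from a C3H mouse, which divides in growth medium and forms myotubes when serum is reduced. Cells received a control siRNA (siControl) or an siRNA against the transcription factor Bach1 (siBach1), with RNA from day 0 and from day 2 of differentiation. This gave 4 conditions of 3 arrays each, 12 one-colour Agilent arrays in all: siControl day 0, siBach1 day 0, siControl day 2 and siBach1 day 2. All 4 conditions share the cell line and a transfection, and siBach1 was a single siRNA, so that an effect of silencing Bach1 and another effect of this siRNA cannot be told apart. The labels do not say whether the replicates were separate cultures, so the p-values measure only the spread between these arrays.

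Each value below is the log2 of the scanner's background-subtracted signal minus the 75th percentile of its array, so that 0 is the 75th percentile. Values of different probes cannot be compared as levels. A test needed a probe that stood well above background throughout the 3 arrays of some condition, and it was called where limma gave a Benjamini-Hochberg adjusted p under 0.05 over 29664 tested probes. An array had 47.6% to 58.9% of its probes well above background. The Bach1 probe was 3.42-fold lower with siBach1 at day 0 (adjusted p = 1.23e-05) and 3.91-fold lower at day 2 (adjusted p = 1.36e-05). Of 10 myoblast and muscle markers, 9 had a probe well above background on all 12 arrays. Cdh5, Kdr, Epcam and Adipoq, which mark endothelial, epithelial and fat cells, were well above background on no array. Krt14 and Lep, of epithelial and fat cells, each had a probe that was so on all 12. So did all 3 immune markers, Ptprc, Cd68 and Itgam, although 6 of the 12 immune probes were so on no array. The other markers of endothelial, epithelial and fat cells, Pecam1, Krt5 and Plin1, were so on some arrays. Endothelial Pecam1 was so on all 3 arrays of each condition except siBach1 day 0, where it was so on 2. Replicates 1 and 2 were on slide 1 and replicate 3 was on slide 2, and a condition always lay in the same column of positions, which no other condition used, so that position and condition cannot be told apart. In bulk RNA of this kind, fewer cells of a type and less RNA per cell cannot be told apart either.

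The anaphase-promoting complex is a ubiquitin ligase that marks proteins for the proteasome and so drives the exit from mitosis. A scaffold of Anapc1, Anapc4 and Anapc5 carries a catalytic pair, the cullin-like Anapc2 and the RING protein Anapc11, and an arm of repeat proteins to which Anapc7 belongs. Cdc20 brings substrates such as securin and cyclin B to the complex in mitosis, and Fzr1, also called Cdh1, takes over in late mitosis and in G1, when a myoblast may leave the cell cycle.

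The promoters of Anapc5, Cdc20 and Ube2c, a ubiquitin-conjugating enzyme that works with the complex, are shown because Anapc5 and Cdc20 are the members with the widest changes and Ube2c fell together with Cdc20. Each line holds the 250 bases before the RefSeq start on build GRCm38.p6, 5′ to 3′ on the strand of the gene, at chr5:122821343-122821592 (minus strand), chr4:118437344-118437593 (minus strand) and chr2:164769679-164769928 (plus strand). Capitals mark TTTGAA and CCAAT on either strand, where the other strand reads TTCAAA and ATTGG.
Anapc5: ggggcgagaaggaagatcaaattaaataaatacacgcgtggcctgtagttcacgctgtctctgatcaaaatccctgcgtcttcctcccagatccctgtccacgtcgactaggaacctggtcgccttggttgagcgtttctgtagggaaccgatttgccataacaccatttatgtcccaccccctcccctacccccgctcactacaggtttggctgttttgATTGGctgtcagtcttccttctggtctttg
Cdc20: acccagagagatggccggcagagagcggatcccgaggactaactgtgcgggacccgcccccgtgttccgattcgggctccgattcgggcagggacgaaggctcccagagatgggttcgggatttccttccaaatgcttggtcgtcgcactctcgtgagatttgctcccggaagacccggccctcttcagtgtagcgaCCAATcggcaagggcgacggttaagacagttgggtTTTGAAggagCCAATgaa
Ube2c: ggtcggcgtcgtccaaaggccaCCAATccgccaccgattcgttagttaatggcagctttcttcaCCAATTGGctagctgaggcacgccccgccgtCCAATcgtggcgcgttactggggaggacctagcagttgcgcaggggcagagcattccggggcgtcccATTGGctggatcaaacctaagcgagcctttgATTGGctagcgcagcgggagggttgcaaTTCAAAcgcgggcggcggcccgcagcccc

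TTTGAA is a form of the cell cycle homology element found in many promoters of mitotic genes, and CCAAT is the box bound by NF-Y. In Cdc20 the letters TTTGAA began 18 bases before the start and lay between CCAAT boxes that began 53 and 8 bases before it. Ube2c held TTTGAA on the other strand, from 29 to 24 bases before its start, and 6 CCAAT matches, 2 of which overlap at 1 spot. The Anapc5 window held no TTTGAA and 1 CCAAT on the other strand. All 10 member genes had a promoter in the table, and TTTGAA was in the windows of 2 of them, Anapc7 and Cdc20, while CCAAT was in those of 5. Over all 32851 promoters of the table, 16% held TTTGAA and 33.8% held CCAAT in the same window. The letters TGCTGAG and TGACTCA, which are parts of the sequence bound by Bach1 with a small Maf protein, were in 6.21% and 4.46% of all promoters and in none of the member windows. A match is a description of letters, and its absence says only that these letters were not in this window.

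The 3 Anapc5 probes gave different pictures of the same gene. Probe A_55_P1952359, which the array's design assigns to the RefSeq transcript NM_021505, read 7.09, 7.15 and 7.26 with siControl at day 0 and 4.62, 4.46 and 4.22 with siBach1. At day 2 it read 6.73, 6.65 and 6.81 with siControl and 4.76, 4.76 and 4.92 with siBach1. All 6 siBach1 arrays were therefore lower than all 6 siControl arrays. The difference on the log2 scale was -2.73 ± 0.11 (SE) at day 0, or 6.64-fold, and -1.92 ± 0.11 at day 2, or 3.78-fold. On slide 1 it was -2.58 at day 0 and -1.93 at day 2, and on slide 2, with 1 array of each condition, it was -3.04 and -1.89.

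Probe A_55_P2726935, assigned to the Ensembl transcript ENSMUST00000200058, did not show this drop. It read -1.28, -1.50 and -0.99 with siControl and -1.41, -1.37 and -0.73 with siBach1 at day 0, and the ranges overlapped. At day 2 it read -1.06, -1.21 and -0.96 with siControl and -0.86, -0.75 and -0.63 with siBach1, so that all 3 siBach1 arrays were the higher ones. The differences were 0.08 ± 0.19 (SE) at day 0 and 0.33 ± 0.19 at day 2. Each of the 12 arrays read it well above background, so its value is a measurement and not a bound.

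The remaining probe of Anapc5, A_55_P2736105, assigned to ENSMUST00000197554, was well above background on 1 of 12 arrays, replicate 1 of siControl day 0, and gave no usable difference. RefSeq lists 10 transcripts of Anapc5 on GRCm38.p6, 6 of them with curated NM numbers. Probe sequences were not used here, so which of these transcripts each probe reads was not tested.

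**Figure D1:**
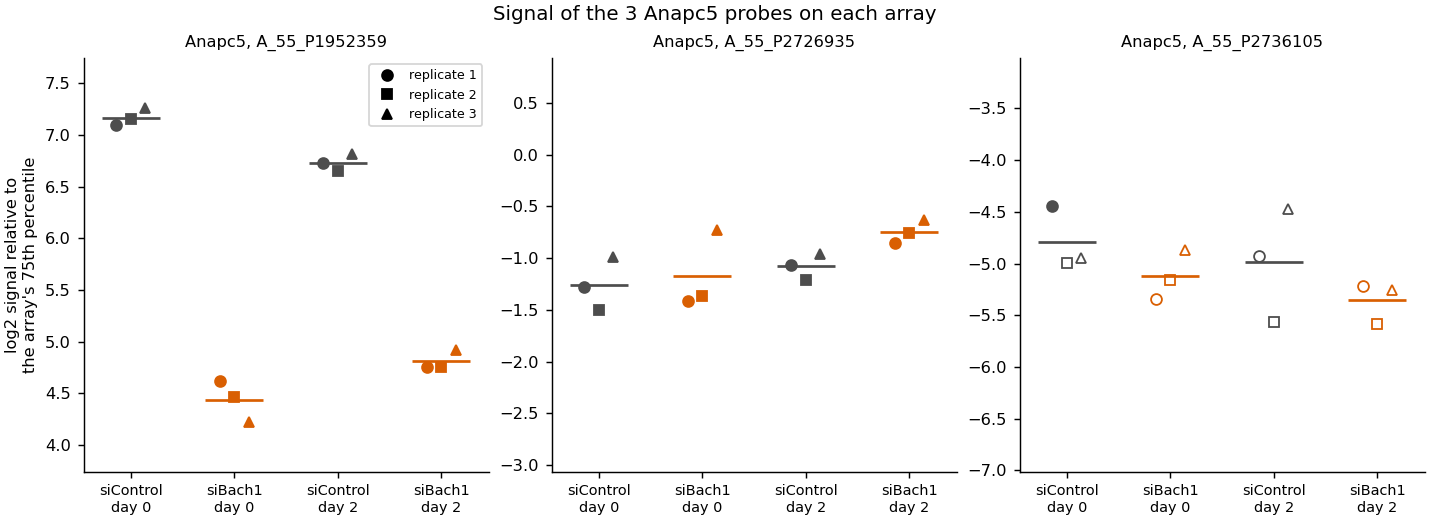
Log2 signal less the 75th percentile of its array (vertical axis) of the 3 Anapc5 probes in the 4 conditions (horizontal axis), with 1 point per array, shaped by replicate, and a line at the mean of 3 arrays; open points were not well above background, and each panel spans the same number of log2 units. A_55_P1952359 lies between 4.22 and 4.92 on the siBach1 arrays and between 6.65 and 7.26 on the siControl arrays, whereas A_55_P2726935 lies between -1.50 and -0.63 on all 12.

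The distance between the 2 measured Anapc5 probes was 2.82 log2 units at day 0 and 2.25 at day 2, taken as the highest minus the lowest siRNA difference among probes of the gene. Among 6665 genes with at least 2 tested probes, the median of this distance was 0.19 at day 0 and 0.23 at day 2. At day 0, 3 genes had a distance at least as large as that of Anapc5, itself included, which is 0.0450% of them. The others were 1700037C18Rik at 3.35 and Parvb, an actin-linking adhesion protein, at 2.97. At day 2, 9 genes or 0.135% reached it. The other 6 member genes with at least 2 tested probes, Anapc1, Anapc2, Anapc4, Anapc11, Cdc20 and Fzr1, had distances of at most 0.35 at day 0 and 0.42 at day 2. These shares use the contrast that chose Anapc5 and are given as a description. Over day 2 minus day 0 the same 2 probes lay 0.62 apart in siControl, where 29.2% of genes had at least that distance, and 0.05 apart in siBach1, where 88.9% did.

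**Figure D2:**
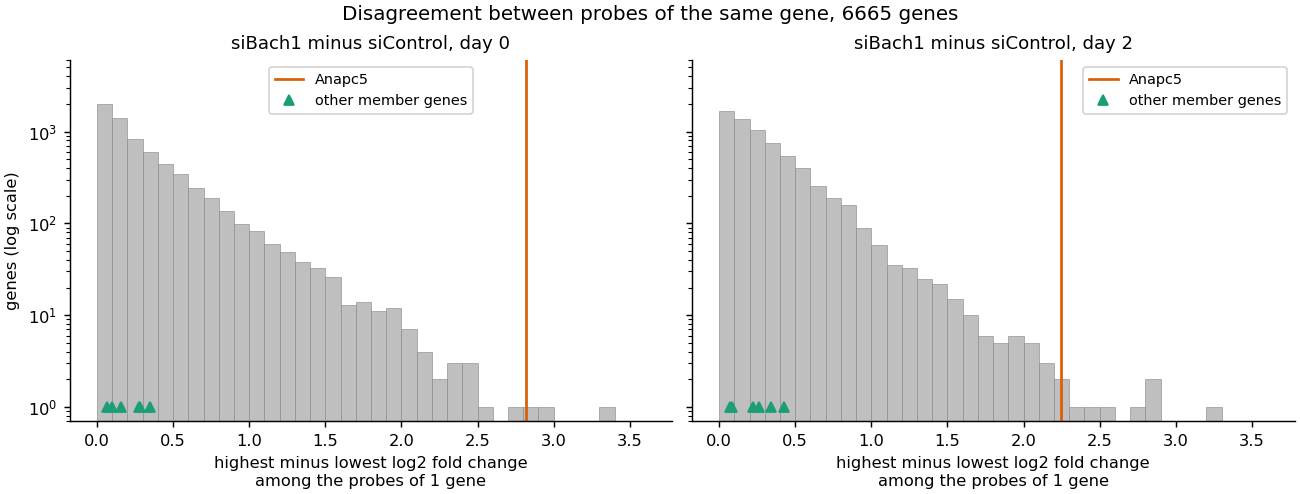
Number of genes (vertical axis, log scale) by the highest minus the lowest log2 fold change of siBach1 against siControl among the tested probes of 1 gene (horizontal axis), for 6665 genes at day 0 and at day 2. The line marks Anapc5, at 2.82 and 2.25, and the triangles mark the other 6 member genes with several tested probes, at 0.42 or less.

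With time in differentiation medium, probe A_55_P1952359 moved in opposite directions under the 2 siRNAs. From day 0 to day 2 it fell by 0.44 on the log2 scale in siControl (SE 0.11, adjusted p = 0.0061), and it rose by 0.38 in siBach1 (SE 0.11, adjusted p = 0.013). The day 0 and day 2 arrays did not overlap in either case. Within slides the siControl change was -0.43 and -0.45 on slides 1 and 2, and the siBach1 change was 0.21 and 0.70. The siBach1 call was lost without the filter on dim probes (adjusted p = 0.053), in a fit of the 6 siBach1 arrays alone (0.050) and in the methods' t-test after adjustment (0.080). The change kept its sign in all alternatives, whose adjusted p ran from 0.00049 to 0.080. The difference between these changes is the difference of the siRNA effect between days, which chose the set, and has no test here. Both changes come from the arrays that chose the set, and their p-values do not allow for that choice. The opposite directions are therefore a description too. Probe A_55_P2726935 changed by 0.18 ± 0.19 (SE) in siControl (adjusted p = 0.46) and by 0.42 ± 0.19 in siBach1 (adjusted p = 0.079, and 0.013 with the replicate as a block). Without replicate 3 of siBach1 day 0 its siBach1 change was 0.64 with an adjusted p of 0.0047.

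The probes whose course over the 12 arrays was most like that of A_55_P1952359 were named by the root mean square difference of mean-centred log2 values, among 21623 probes that carry a symbol and that each array read well above background. They belonged to Triap1, a small p53-inducible protein (0.25), the nuclear pore gene Nup93 (0.29), Parvb (0.31), the interferon-induced gene Ifit2 (0.32) and the secreted factor Angptl2 (0.36), against a root mean square of 1.18 for the Anapc5 probe itself. Their siRNA differences ran from -2.74 to -2.01 at day 0 and from -1.95 to -1.29 at day 2. Each of these neighbours is a single probe, and the tested probes of Parvb lay 2.97 apart at day 0. For A_55_P2726935 the nearest were probes of Arhgap17, Gmpr2, Rabl6, Kxd1 and 9930012K11Rik, at 0.09 to 0.13 against 0.28 for the probe itself. No gene was in both lists. The likeness is over the same arrays and scaling for all probes and is not a test.

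Outside Anapc5, a single probe of the member genes was called between the siRNAs at day 0. Of the 17 tested probes of the other 9 genes, 1 was called higher and 0 lower with siBach1, where 17.1% of all tested probes were called (8.80% higher and 8.32% lower). The median change of the 17 probes was -0.00, against 0.09 over all tested probes, and the range was from -0.32 to 0.35. The groups did not overlap for 5 of the 17, as for 37.3% of all tested probes. The called probe was A_55_P2720376 of Anapc11, assigned to ENSMUST00000148114, which read -1.74, -1.73 and -1.51 with siControl and -1.44, -1.30 and -1.20 with siBach1. It was higher on every siBach1 array, by 0.35 ± 0.10 (SE; adjusted p = 0.035), and the call was lost in 13 of 24 alternatives, 6 of which each left out 1 array. Without replicate 1 or 2 of siControl day 0 the adjusted p was 0.12, without replicate 2 of siBach1 day 0 it was 0.085, without replicate 3 of siBach1 day 0 0.11, and without replicate 1 of siControl day 2 or of siBach1 day 2 it was 0.050 and 0.053. The other Anapc11 probes, A_51_P121390 and A_52_P635984, changed by 0.01 and -0.00.

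Anapc7, a repeat-protein subunit, read 3.30, 3.20 and 3.44 with siControl and 3.47, 3.47 and 3.81 with siBach1 at day 0. The siBach1 arrays were the higher ones, by 0.27 ± 0.12 (SE), which did not pass the test (adjusted p = 0.15). It passed with the replicate as a block (adjusted p = 0.031) and with the slide as a block (0.022). Cdc20 was lower on all siBach1 arrays by both probes, with -0.17 ± 0.18 and -0.32 ± 0.17 (SE), and neither passed in limma (adjusted p = 0.57 and 0.23). In the methods' t-test the latter, A_55_P2729165, had an adjusted p of 0.030. Anapc13 was higher on all siBach1 arrays, by 0.15 ± 0.09 (adjusted p = 0.27). The scaffold genes Anapc1 and Anapc4, the cullin gene Anapc2, and Anapc10, which helps hold substrates, had siRNA differences between -0.22 and 0.06 at day 0 by their 8 tested probes.

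At day 2 limma called 0 of these 17 probes, where 12% of all tested probes were called (5.75% higher and 6.26% lower). At an unadjusted p under 0.05, 5 of the 17 passed in limma, as did 27.3% of all tested probes. In the methods' t-test 4 passed unadjusted and 0 after Benjamini-Hochberg adjustment. The median of the 17 was -0.09, against -0.01 over all tested probes, and 4 of the 17 did not overlap between the siRNAs, as for 32.8% of all tested probes. Anapc13, a small subunit that steadies the repeat-protein arm, read 5.20, 5.13 and 5.26 with siControl and 4.91, 4.83 and 5.02 with siBach1. It was lower on every siBach1 array, by -0.28 ± 0.09 (SE; adjusted p = 0.063, and 0.012 with the replicate as a block). Fzr1 probe A_52_P97309 read 1.76, 1.73 and 2.08 with siControl and 2.20, 2.16 and 2.27 with siBach1. It differed by 0.35 ± 0.11 (adjusted p = 0.069, 0.017 with the replicate as a block, and 0.027 without replicate 3 of siControl day 2), while the other Fzr1 probe, A_52_P486322, differed by -0.07 ± 0.15. The other probes without overlap were those of Anapc10, at -0.14 ± 0.07, and Anapc11 probe A_51_P121390, at -0.19 ± 0.09, both lower on every siBach1 array (adjusted p = 0.28 and 0.17).

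Cdc20 at day 2 turned on 1 control array. Probe A_55_P1996946 read 3.77, 3.14 and 3.93 with siControl and 3.15, 3.07 and 3.38 with siBach1, and A_55_P2729165 read 2.94, 2.39 and 3.09 with siControl and 2.16, 2.23 and 2.60 with siBach1. Replicate 2 of siControl day 2 was the low one by both probes and fell within the siBach1 range. The differences were -0.41 ± 0.18 and -0.48 ± 0.17 (SE; adjusted p = 0.16 and 0.098). Without that array they were -0.65 and -0.69, with adjusted p of 0.0083 and 0.013. With the slide as a block the adjusted p of A_55_P2729165 was 0.049.

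For the difference of the siRNA effect between the days limma called 0 of the 17 probes, where 4.59% of all tested probes were called. At an unadjusted p under 0.05, 3 of the 17 passed, as did 21.8% of all tested probes. With the replicate as a block, a fit whose share over all tested probes is not given here, 2 were called. They were Anapc13 at -0.43 ± 0.12 (SE; adjusted p = 0.074 without and 0.016 with the block) and Anapc7 at -0.42 ± 0.17 (0.18 and 0.039). In both the siBach1 arrays were on average above siControl at day 0 and below it at day 2.

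**Figure D3:**
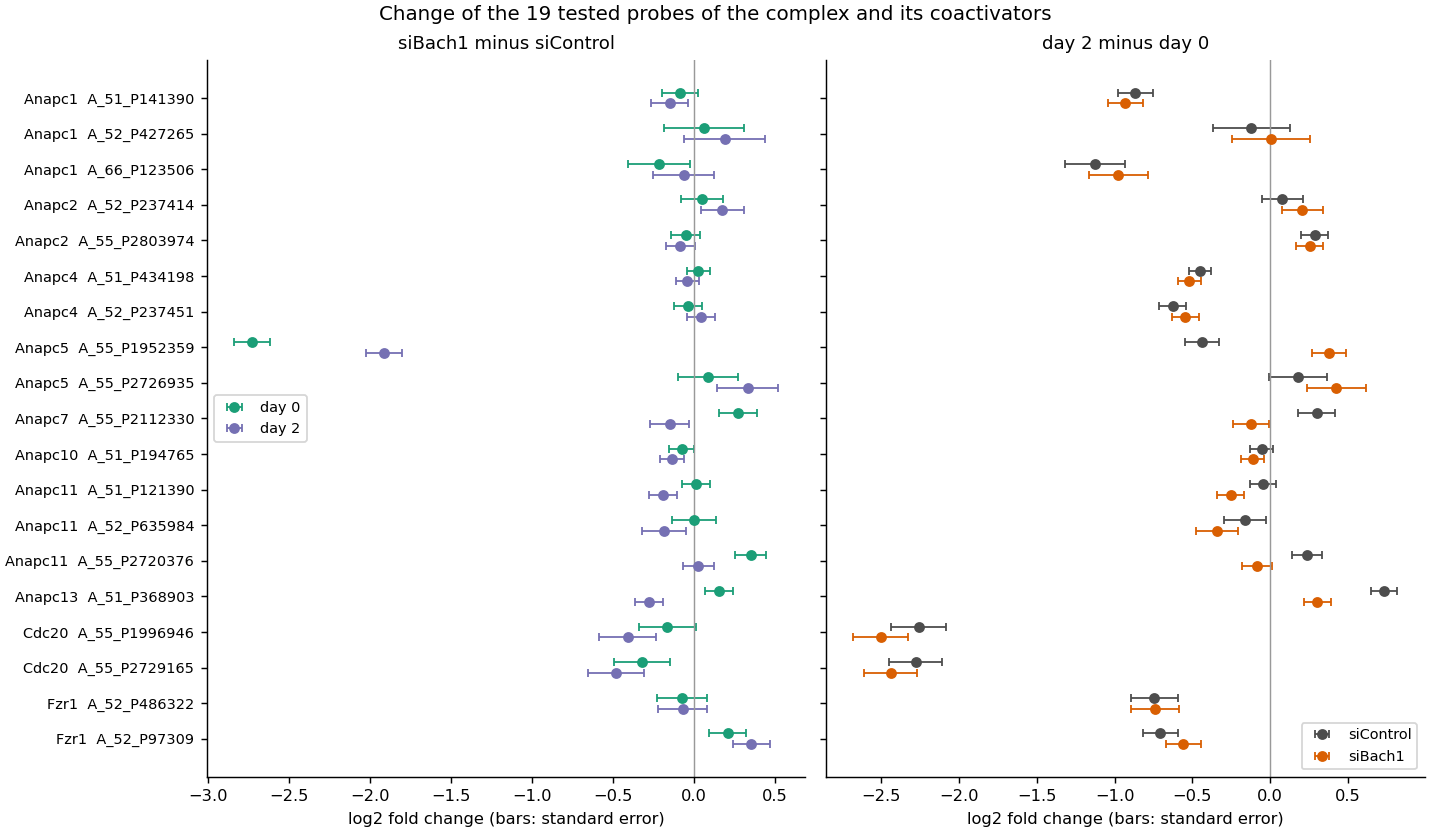
Log2 fold change (horizontal axes; bars are standard errors) of the 19 tested probes of the member genes (vertical axis), for siBach1 minus siControl at each day on the left and for day 2 minus day 0 under each siRNA on the right. Anapc5 probe A_55_P1952359 stands at -2.73 and -1.92 on the left while the other 18 probes lie between -0.48 and 0.35, and on the right both Cdc20 probes lie between -2.50 and -2.26.

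Between day 0 and day 2 the widest changes among the members were those of Cdc20. In siControl 11 of 19 probes were called between day 0 and day 2, where 53.4% of all tested probes were called (24.6% higher and 28.7% lower), and in siBach1 12 of 19, where 56.1% were (23.8% higher and 32.3% lower). In each case 9 probes were lower, and 2 were higher in siControl and 3 in siBach1. Anapc5 probe A_55_P1952359, whose arrays chose the set, is among those lower in siControl and those higher in siBach1. The median over the 19 was -0.16 in siControl and -0.25 in siBach1, against 0.00 and -0.07 over all tested probes. The day 0 and day 2 arrays did not overlap for 13 of 19 under either siRNA, as for 61.9% and 61.3% of all tested probes. The share of members called is thus close to that of all probes in both cases.

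Cdc20, the mitotic coactivator, fell under both siRNAs. Probe A_55_P1996946 read 5.81, 5.88 and 5.91 with siControl and 5.70, 5.63 and 5.77 with siBach1 at day 0, all above the day 2 values given above. It fell by 2.26 on the log2 scale in siControl (SE 0.18, adjusted p = 2.54e-06) and by 2.50 in siBach1 (SE 0.18, adjusted p = 1.32e-06). On slides 1 and 2 the siControl change was -2.40 and -1.98 and the siBach1 change was -2.56 and -2.39. Probe A_55_P2729165 fell by 2.28 and by 2.44, from 5.07, 5.04 and 5.15 with siControl and 4.79, 4.80 and 4.70 with siBach1 at day 0.

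Fzr1, the coactivator of late mitosis and G1, also fell, but by less. Probe A_52_P486322 read 3.71, 3.81 and 4.06 at day 0 and 3.03, 2.89 and 3.43 at day 2 in siControl, and 3.62, 3.84 and 3.90 and then 2.99, 2.96 and 3.19 in siBach1. It fell by 0.74 in both (adjusted p = 0.0019 and 0.0018). Probe A_52_P97309 fell by 0.71 in siControl (adjusted p = 0.00035) and by 0.56 in siBach1 (adjusted p = 0.0015), from day 0 values between 2.43 and 2.84. No day 2 array of either probe reached the day 0 range of its siRNA.

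Of the scaffold genes, Anapc1 and Anapc4 had probes that fell under both siRNAs, and Anapc5 is given above. Anapc1 probe A_51_P141390 read 4.68, 4.68 and 4.88 at day 0 and 3.83, 3.73 and 4.07 at day 2 in siControl, and it fell by 0.87 there (SE 0.11, adjusted p = 8.14e-05) and by 0.93 in siBach1 (adjusted p = 4.58e-05). Probe A_66_P123506 of the same gene fell by 1.13 and by 0.98 (adjusted p = 0.00054 and 0.0013). Both are assigned to NM_008569, whereas A_52_P427265, assigned to ENSMUST00000134485, changed by -0.12 ± 0.25 and 0.01 ± 0.25 (SE). Its siBach1 change was 0.36 with an adjusted p of 0.032 without replicate 3 of siBach1 day 0, which at -1.57 was above the other 11 arrays, at -2.66 to -2.12. Anapc4 fell by both probes, by 0.45 and by 0.63 in siControl (adjusted p = 0.00034 and 0.00014) and by 0.52 and by 0.55 in siBach1 (adjusted p = 0.00012 and 0.00033).

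Among the subunits outside the scaffold, Anapc13 rose most by a tested probe. It read 4.50, 4.34 and 4.55 at day 0 and rose by 0.73 in siControl (SE 0.09, adjusted p = 4.24e-05), and it read 4.63, 4.56 and 4.66 at day 0 and rose by 0.30 in siBach1 (SE 0.09, adjusted p = 0.012). The siBach1 call was lost without the filter on dim probes (adjusted p = 0.062). The cullin gene Anapc2 rose by 0.28 and by 0.25 by probe A_55_P2803974 (adjusted p = 0.020 and 0.033), and its other probe, A_52_P237414, changed by 0.08 and 0.20 (adjusted p = 0.65 and 0.21). The Anapc2 calls did not hold without single arrays. In siControl the adjusted p was 0.074 without replicate 1 of day 0, 0.065 without replicate 2 of day 0 and 0.069 without replicate 2 of day 2. In siBach1 it was 0.084 and 0.10 without replicates 1 and 2 of day 0, and 0.056 and 0.12 without replicates 1 and 3 of day 2.

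The RING gene Anapc11 was called lower by 1 of 3 probes in siBach1 and by none in siControl. Probe A_51_P121390 read 5.59, 5.52 and 5.79 at day 0 and 5.34, 5.37 and 5.42 at day 2 in siBach1, a fall of 0.25 (SE 0.09, adjusted p = 0.027). Under quantile normalization the same change was 0.09 (adjusted p = 0.33), so its direction depended on the scaling. Without replicate 3 of siBach1 day 0 the adjusted p was 0.088, and without replicates 1 and 2 of siBach1 day 2 it was 0.083 and 0.065. Probe A_52_P635984 changed by -0.34 in siBach1 (adjusted p = 0.051, and 0.0023 with the replicate as a block), and its adjusted p was under 0.05 without replicate 2 of siBach1 day 0 (0.044), replicate 3 of siBach1 day 2 (0.046) or replicate 3 of siControl day 0 (0.023). In siControl the 3 probes changed by -0.05, -0.16 and 0.23, and the last of these, A_55_P2720376, had an adjusted p of 0.065, or 0.028 without replicate 3 of siControl day 0.

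Anapc7 changed by 0.30 ± 0.12 (SE) in siControl (adjusted p = 0.055, and 0.0081 with the replicate as a block), with 3.47, 3.64 and 3.73 at day 2 against at most 3.44 at day 0. Its adjusted p was 0.041 without replicate 1 of siControl day 2, 0.044 without replicate 3 of siControl day 0 and 0.025 without replicate 3 of siBach1 day 0. In siBach1 it changed by -0.12 ± 0.12 (adjusted p = 0.41). Anapc10 stayed between 2.46 and 2.75 on all 12 arrays, with changes of -0.05 and -0.11 that did not pass (adjusted p = 0.57 and 0.23). The 8 untested probes, 4 of Anapc1, 2 of Anapc7, and 1 each of Anapc4 and Anapc5, read between -7.44 and -3.50, and in no condition did 1 of them stand well above background throughout its 3 arrays. Of these, Anapc7 probe A_55_P2731736 was so on 2 of 3 siBach1 day 2 arrays and on no siControl day 2 array. It was higher on every siBach1 array at day 2, by 1.22, where the tested Anapc7 probe differed by -0.15. Near background, this difference has no test.

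**Figure D4:**
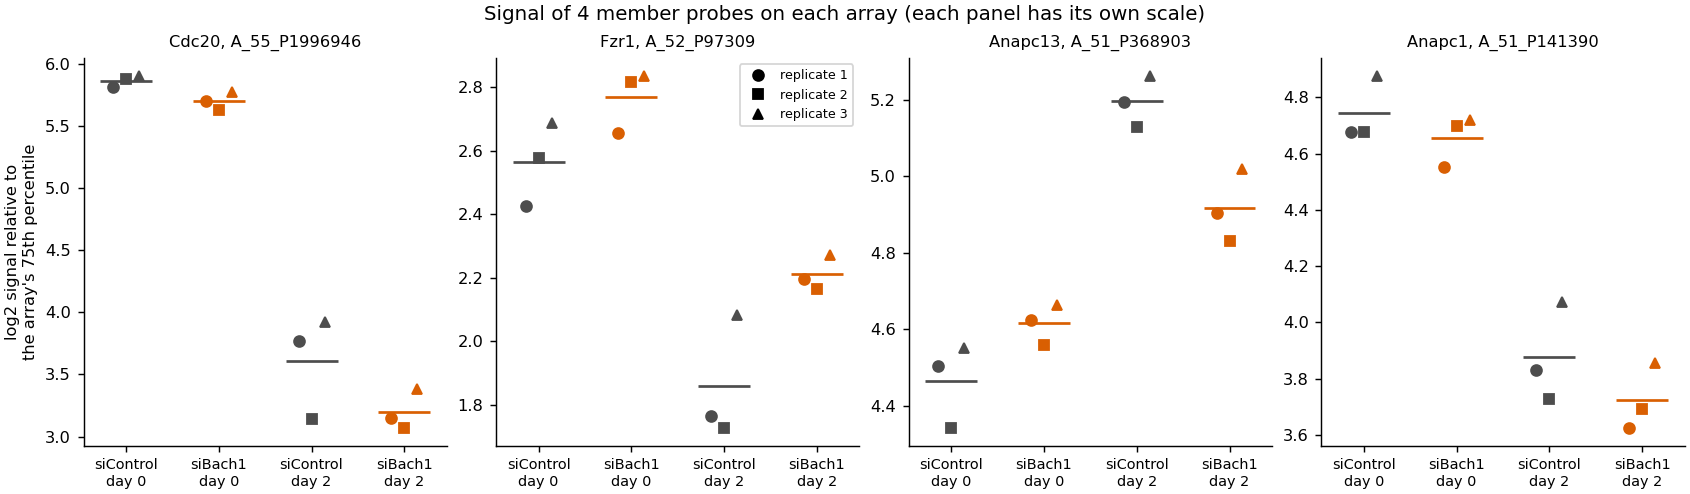
Log2 signal less the 75th percentile of its array (vertical axes, each panel on its own scale) of 1 probe each of Cdc20, Fzr1, Anapc13 and Anapc1 in the 4 conditions (horizontal axes), with 1 point per array, shaped by replicate, and a line at the mean of 3 arrays. Cdc20 lies between 5.63 and 5.91 at day 0 and between 3.07 and 3.93 at day 2, while Anapc13 lies between 4.34 and 4.66 at day 0 and between 4.83 and 5.26 at day 2.

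The course of Cdc20 over the 12 arrays was most like that of other genes of mitosis. Nearest to A_55_P1996946 were Plk1, a mitotic kinase (root mean square difference 0.06), Birc5, a passenger protein of chromosomes (0.07), Melk (0.07), the checkpoint gene Mad2l1 (0.08) and the other Cdc20 probe (0.10), against 1.21 for the probe itself. Nearest to A_55_P2729165 were Sgol1, which guards cohesion at centromeres, Plk1, Kif4, Birc5 and the other Cdc20 probe, at 0.07 to 0.10. Plk1 and Birc5 were in both lists.

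A list of 41 further genes that act with the complex was read in the same fit, with 77 of 86 probes tested and 40 genes among them. It held the 6 subunit genes that are not members, 3 ubiquitin-conjugating enzymes, 9 genes of the spindle checkpoint and other inhibitors, and 23 genes whose proteins are substrates. In siControl 63 of 77 probes were called between day 0 and day 2, 58 lower and 5 higher, and in siBach1 also 63, 62 lower and 1 higher. Over all tested probes 53.4% were called in siControl and 56.1% in siBach1, and 28.7% and 32.3% were called lower. The median change was -1.94 and -2.01, against 0.00 and -0.07 over all tested probes.

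The other subunits moved unevenly. Of their 19 probes, 7 were called lower in siControl, against 28.7% of all tested probes, and 11 in siBach1, against 32.3%, with medians of -0.23 and -0.42. All 4 probes of Anapc15, a subunit that helps renew Cdc20 on the complex, were called lower under both siRNAs, with changes from -1.43 to -0.82 in siControl and from -1.60 to -0.88 in siBach1. At day 2, A_55_P2069331 was well above background on 2 of 3 arrays of each siRNA and A_51_P124647 on 2 of 3 siBach1 arrays. The TPR gene Cdc27 fell by 0.57 in siControl and by 0.85 in siBach1 by probe A_65_P19769 (adjusted p = 0.0015 and 8.53e-05). No tested probe of Cdc16 was called, with changes from -0.23 to 0.04. Cdc23 had 2 probes called lower under both siRNAs and 2 probes with no call. The values given here for the other subunits, the conjugating enzymes and Skil lie outside the 10 widest of a comparison and were chosen after they were seen.

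Among the ubiquitin-conjugating enzymes, Ube2c, which starts chains, fell by 1.94 in siControl and by 2.20 in siBach1 (adjusted p = 5.96e-06 and 2.54e-06). Ube2s, which extends them, fell by 1.09 and by 1.11 in siControl and by 1.63 and by 1.60 in siBach1 by its 2 probes. Ube2d1, a general enzyme of this class, went the other way in siControl, where its 2 probes rose by 0.90 and by 0.95 (adjusted p = 0.00025 and 1.98e-05). In siBach1 they changed by 0.03 and 0.09 (adjusted p = 0.86 and 0.46).

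Of the checkpoint and inhibitor genes, 12 of 14 probes were called lower under each siRNA, where 28.7% and 32.3% of all tested probes were, with medians of -2.17 and -2.22, and the probes of Mad1l1 were those not called. Fbxo5, also called Emi1, an inhibitor of the complex before mitosis, fell by 2.66 in siControl and by 2.26 in siBach1 (adjusted p = 2.65e-06 and 7.35e-06). Trip13, which takes apart the checkpoint complex, fell by 2.85 and by 2.79 by probe A_51_P105709 (adjusted p = 5.43e-07 and 6.24e-07). Its other tested probe, A_55_P2739517, was called lower too, but it was well above background on none of the 6 day 2 arrays, so the size of its change is not given. Of 39 substrate probes, 36 were called lower under each siRNA, against the same 28.7% and 32.3% of all tested probes. The replication genes Tk1 and Cdc6 and the cyclin gene Ccna2 were among the widest falls in siControl, by 2.92, 3.35 and 2.75 (adjusted p = 1.79e-06, 1.20e-05 and 3.81e-07). In siBach1 Id2, an inhibitor of muscle bHLH factors, fell by 3.47 by probe A_52_P240542 (adjusted p = 6.54e-07), and Ccnb1, the gene of cyclin B1, by 2.85 by probe A_55_P1952256 (adjusted p = 4.59e-07). The substrate gene that rose was Skil, with 3 probes called in siControl, from 0.56 to 0.94, and 1 in siBach1, at 0.41 (adjusted p = 0.010). The 1 probe of Myf5, a muscle factor known as a substrate of the Fzr1 form, was not tested, because replicate 3 was not well above background in any condition.

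**Figure D5:**
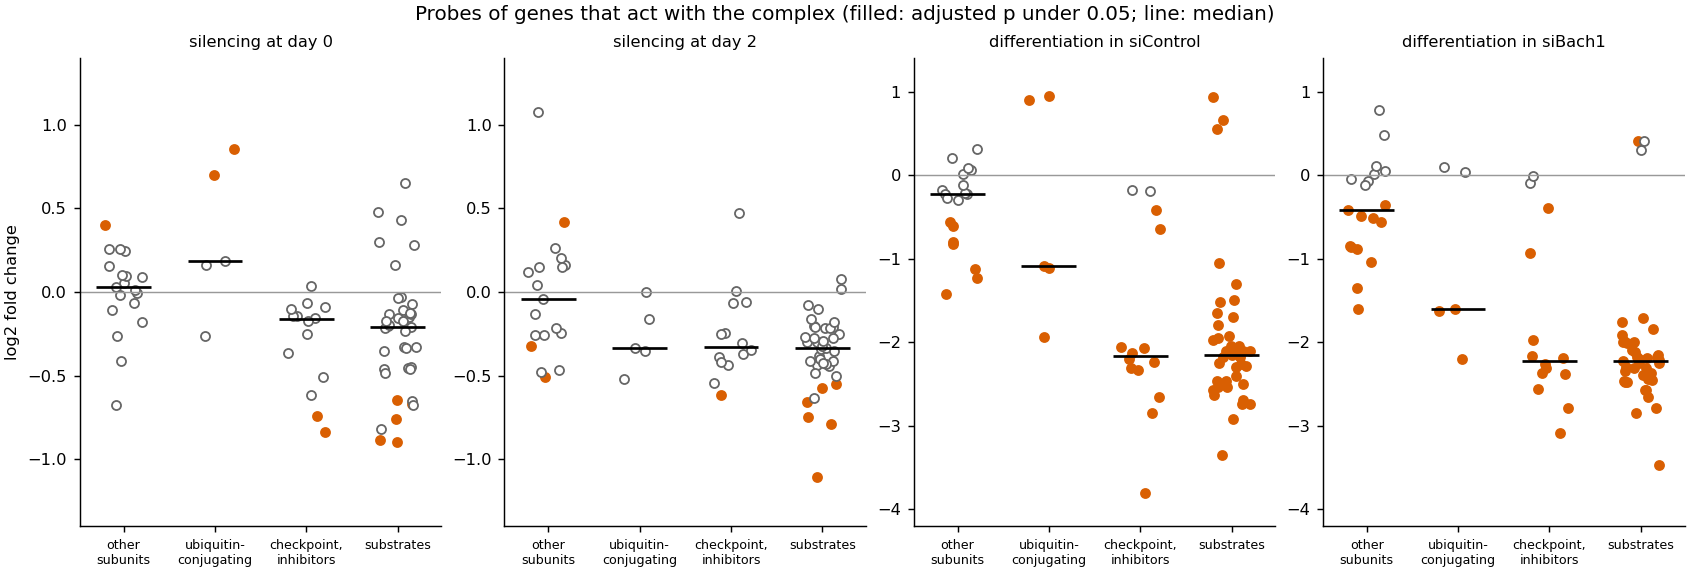
Log2 fold change (vertical axes) of the 77 tested probes of genes that act with the complex, by role (horizontal axes), for siBach1 minus siControl at day 0 and day 2 (the panels titled silencing) and for day 2 minus day 0 under each siRNA (the panels titled differentiation). Filled points had an adjusted p under 0.05 and lines are medians, which lie between -0.33 and 0.19 in the panels of the siRNA and reach -2.23 in those of differentiation.

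Between the siRNAs the same list differed less. At day 0, 10 of 77 probes were called, 3 higher and 7 lower with siBach1, where 17.1% of all tested probes were called. The median was -0.15, against 0.09 over all. Those lower were Foxm1 probe A_55_P2749790 (-0.90), both Ccna2 probes (-0.89 and -0.76), Fbxo5 (-0.84), the checkpoint kinase gene Ttk (-0.74), Cdc6 probe A_55_P2805736 (-0.67) and Tk1 probe A_55_P2056496 (-0.64). Those higher were both Ube2d1 probes (0.85 and 0.70) and Cdc26 probe A_55_P2139112 (0.40). The count was 4 without replicate 2 of siControl day 0, 5 without replicate 2 of siBach1 day 0 and 18 without replicate 2 of siControl day 2.

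At day 2, 22 of 77 probes were called with the replicate as a block, a fit whose share over all tested probes is not given here. Without the block 10 of 77 probes were called, 1 higher and 9 lower, where 12% of all tested probes were called. The median was -0.30, against -0.01 over all. Those lower were the 2 probes of Pttg1, the gene of securin (-1.11 and -0.79), Hmmr (-0.75), Ccna2 probe A_51_P481920 (-0.66), Ttk (-0.62), Cdca3 (-0.58), Ccnb2 (-0.55), Anapc16 probe A_65_P13603 (-0.51) and Cdc26 probe A_52_P649285 (-0.33). Cdc16 probe A_55_P2617069 was higher, by 0.42. This count rested on single arrays. It was 30 without replicate 2 of siControl day 2, the array on which Cdc20 was low, and 3 and 4 without replicates 1 and 3 of that condition. It was 4, 4 and 6 without replicates 1, 2 and 3 of siBach1 day 2, and 6 without replicate 1 of siControl day 0 or replicate 1 or 2 of siBach1 day 0.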

How the data were processed

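RNA of 12 C2C12 samples was labelled with 1 dye and hybridized to Agilent mouse arrays. The authors deposited scanner output with intensity per spot, after background subtraction by Agilent Feature Extraction 10.7.3.1 per the file headers, and a table of normalized log2 values. The authors' log2 values are the signal minus the 75th percentile of the array, centred on the median of each probe. Gene symbols come from the deposited table.

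Outlier and control spots were left out, repeated spots were averaged as log2, and the 75th percentile was subtracted. A fit of the 4 conditions in limma 3.58.1 (R 4.3.3) gave 5 comparisons, checked on simulated data. Tables and figures used Python 3.11.15, pandas 2.3.3 and matplotlib 3.10.9. Arrays that share a replicate number, and so a slide, deviated together in 18 of 18 pairs (correlations of 0.142 to 0.595). Arrays of replicates 1 and 2, which share slide 1 but not the number, also deviated together (0.100 to 0.265). Whether the numbers pair the samples beyond the slide was not tested. Replicate as a block was an alternative. The members, gene lists and motifs were chosen with earlier results of these data known. All member genes are named, but not every 1 of their probes. Values of the other listed genes were to come from the 10 widest called in a comparison, of which the report gives some, with exceptions named there, and for each tested Anapc5 and Cdc20 probe the 5 nearest profiles. Alternatives were quantile normalization, a normexp correction with an offset of 50, the authors' values, other filters and blocks, the arrays of a comparison alone, a robust prior, the methods' t-test, a fold limit and each array left out.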

Additional observations from a re-analysis of the deposited data

Results flagged for a closer look

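Among the genes read here, 3 of the 77 tested probes of the wider list had an siRNA effect that differed between the days in limma. Over all tested probes 4.59% did, so the count does not exceed that share. Both Ube2d1 probes were called higher with siBach1 at day 0 and not called at day 2, with a difference between days of -0.87 for A_52_P546459 (SE 0.19, adjusted p = 0.034) and of -0.86 for A_55_P2814658 (SE 0.14, adjusted p = 0.013). For the latter the means were 1.99 with siControl and 2.84 with siBach1 at day 0, and 2.94 and 2.94 at day 2. Pttg1 probe A_55_P2110738 was called lower with siBach1 at day 2 and not called at day 0, with a difference between days of -1.07 (SE 0.19, adjusted p = 0.015), with means of -0.54 and -0.58 at day 0 and of -2.04 and -3.15 at day 2. The other Pttg1 probe, A_51_P371190, gave -0.64 (adjusted p = 0.14). With 3 arrays per condition, single arrays could not be tested as outliers.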

How the results depend on the processing

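The distance between the Anapc5 probes ran from 2.49 to 3.03 at day 0 and from 2.09 to 2.27 at day 2 over all alternatives. Among the called member changes, only that of Anapc11 probe A_51_P121390 between days in siBach1 turned its direction, at 0.0874 under quantile normalization, and the cause was not tested. Some changes that were not called also took both signs, such as Anapc7 between days in siBach1, from -0.18 to 0.12.

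Between the siRNAs at day 0, 1 member probe was called. The count was 0 under quantile normalization, normexp, no filter, the arrays of the comparison alone, a robust prior or a fold of at least 2, 2 with the replicate or the slide as a block, 3 in the methods' t-test unadjusted, and 0 to 1 with each array left out. At day 2 it was 0, against 1 under quantile normalization or normexp, 2 with the replicate block or a robust prior, 3 with the slide block, 4 in the unadjusted t-test, and 0 to 2 with each array left out (2 without replicate 2 and 1 without replicate 3 of siControl day 2). For the difference between days it was 0, against 2 with either block, 1 with a robust prior, and 0 with each array left out. Between days, a fold of at least 2 left 3 of 11 calls in siControl and 2 of 12 in siBach1, and leaving out each array gave 10 to 13 in either.

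For the wider list at day 0, with 10 calls, the count was 16 with normexp or the slide block, 4 with no filter, 17 from the arrays of the comparison alone, 34 in the unadjusted t-test, 0 at a fold of at least 2, and 4 to 18 with each array left out. At day 2, with 10 calls, it was 2 with no filter, 22 with the replicate block, 21 with the slide block, 3 from the arrays of the comparison alone, 1 in the adjusted t-test, 1 at a fold of at least 2, and 3 to 30 with each array left out. For the difference between days, with 3 calls, it was 0 with no filter, 10 with the replicate block, 9 with the slide block, 6 with a robust prior, 1 at a fold of at least 2, and 2 to 4 with each array left out. Between days it was 61 to 64 in siControl and 62 to 63 in siBach1 with each array left out. The causes were not tested, except that leaving out arrays or fitting fewer of them lowers the number of samples.

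The replicate block made 8 further member calls, given beside their values, and changed no other member call. Shares over all tested probes are not given for the fits with a block, so their counts have no background beside them. The same holds for the counts of the other alternatives, except where a number over all tested probes is stated. Quantile normalization moved the share of higher among all probes called for the difference between days from 52.0% to 64.8%. Probes near background limit what can be read of the 8 untested member probes.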
